A study of Mus musculus with 87 samples.

Results

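Sodium and calcium channel genes were followed in nuclei of the mouse ventral midbrain after injection of interferon gamma (IFN-γ). The members were all genes with a symbol of the form Scn plus a number and a or b, or starting with Cacn, that had 50 or more counts over the 84 sorted wells. This rule kept 33 of 39 matching symbols, from a table of 48526 genes of which 16473 had that many counts. They comprised 7 sodium channel alpha subunits, 4 sodium channel beta subunits, 8 calcium channel alpha-1 subunits, 4 alpha-2-delta subunits, 4 calcium channel beta subunits and 6 genes of the Cacng family. The 6 symbols left out had 23 counts or fewer over all wells (Cacna1f 23, Scn10a 19, Scn4a 18, Cacna1s 15, Cacng6 10 and Cacng1 6). Scn2a, the gene of a major neuronal sodium channel, is spelled Scn2a1 in the table, so it fell outside the rule and is given among the channel partners. In GRCm38 it lies within a row of sodium channel genes on chromosome 2, from Scn3a at chr2:65457118-65567627 through Scn2a1, Scn1a and Scn9a to Scn7a at chr2:66673425-66784914. The strand setting of the counting is not given in the sources used here, so reads of antisense transcripts cannot be told apart from those of a member.

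Wild-type C57BL/6J mice, males and females of 6 to 12 months, received 400 nL of saline or of saline with 40 ng recombinant IFN-γ into the ventral midbrain on both sides. Nuclei were sorted for NeuN, a nuclear protein of most neurons, at 6, 24, 48 and 72 h, and each saline group held 4 wells, or 6 at 24 h, while each IFN-γ group held 6 wells. The wells of a group came from 2 to 3 mice, and the mouse of each well is not known. Wells of 1 mouse are not independent, so the p-values below measure the spread between wells and are too small as a statement about mice. A second experiment sequenced single nuclei at 48 h from 1 saline mouse and 2 IFN-γ mice. The labels call all 84 wells NeuN+, and the fraction used here came from the study's supplementary list of well barcodes, which gives 42 wells as NeuN−.

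Voltage-gated sodium channels open when a neuron depolarises and carry the rising phase of the action potential. Their alpha subunit forms the pore, and the beta subunits set its gating and its place in the membrane. Voltage-gated calcium channels turn depolarisation into calcium entry, which triggers transmitter release, drives pacemaking in dopamine neurons and reaches the nucleus as a signal for transcription. An alpha-1 subunit forms their pore, the cytoplasmic beta and the extracellular alpha-2-delta subunits bring it to the membrane, and several Cacng genes encode partners of AMPA-type glutamate receptors rather than channel subunits.

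The promoters of 2 members are shown because these were the members called in NeuN+ nuclei 6 h after IFN-γ, and that of Irf1 is shown as an early IFN-γ response gene. Each run gives the 250 bases before a RefSeq transcript start in GRCm38.p6, 5′ to 3′ on the strand of the gene. Capitals mark a match to the GAS motif, TTCNNNGAA, which reads the same on both strands and is known from the promoters of IFN-γ response genes. Only windows with such a match were printed, so its presence in each run follows from that choice and is not a finding. The runs lie at chr2:66634963-66635212 (minus strand, before the first exon of Scn9a), chr6:118757975-118758224 (minus strand, before a transcript start inside Cacna1c, whose gene spans chr6:118587240-119196418) and chr11:53769764-53770013 (plus strand, before Irf1). No exon of GENCODE vM21 overlaps them.
Scn9a: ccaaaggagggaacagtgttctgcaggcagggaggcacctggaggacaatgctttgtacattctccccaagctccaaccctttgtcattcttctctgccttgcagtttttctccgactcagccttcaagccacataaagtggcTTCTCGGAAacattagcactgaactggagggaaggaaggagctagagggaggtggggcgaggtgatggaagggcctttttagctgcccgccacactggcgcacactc
Cacna1c: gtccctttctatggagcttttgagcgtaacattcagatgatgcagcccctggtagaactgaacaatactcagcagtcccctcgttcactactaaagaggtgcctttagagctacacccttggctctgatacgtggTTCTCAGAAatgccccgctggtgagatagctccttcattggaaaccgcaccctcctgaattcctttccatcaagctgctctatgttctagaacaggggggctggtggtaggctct
Irf1: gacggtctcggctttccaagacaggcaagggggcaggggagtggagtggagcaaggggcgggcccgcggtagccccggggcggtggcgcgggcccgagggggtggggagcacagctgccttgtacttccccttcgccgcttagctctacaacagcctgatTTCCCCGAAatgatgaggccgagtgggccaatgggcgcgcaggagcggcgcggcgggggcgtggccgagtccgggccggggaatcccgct

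The motif search covered windows of 250 bases before to 50 bases after a start for 24 of the 33 members. A GAS match was found in 4 of them (Scn9a, Cacna1c, Scn2b and Cacna1i), and in 8.3% of 32851 windows of all genes. A match to the core of the interferon-stimulated response element (GAAA, any 2 bases and GAAA, on either strand) was found in 0 of the 24 members and in 3.44% of all windows. The members were counted as genes with a match in any window, while the percentages count windows. The counts of members therefore cannot be set directly against those percentages. A match describes letters in the window and does not show binding.

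NeuN+ wells held 277113 to 1684374 UMIs and NeuN− wells 20962 to 301445, and low members are therefore read with less precision in NeuN− wells. In the 18 saline wells of each fraction, Rbfox3, which encodes NeuN, had a median of 127 CPM (the count scaled by the well's total) in NeuN+ and 8.49 CPM in NeuN− wells, and the myelin gene Mog had 19.3 and 627 CPM. Th, the dopamine-synthesis enzyme, had a median of 12.4 CPM in NeuN+ wells. The IFN-γ response genes Irf1, Gbp2 and B2m rose in both fractions at 6 and 24 h. Genes of the Y and inactive X chromosome also differed between groups: Eif2s3y had a log2 fold change of -6.28 ± 0.30 (SE) at 6 h and Xist of -3.63 ± 0.62 at 24 h in NeuN+ wells. In NeuN− wells Eif2s3y was lower at 6 h and Xist at 24 h. At 72 h Xist was higher in NeuN+ and lower in NeuN− IFN-γ wells. The part of these genes in the results below was not tested.

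In saline wells every member except Cacna2d4 and Cacng4 had a higher median CPM in NeuN+ than in NeuN− nuclei. Cacna2d4 had medians of 4.04 CPM in NeuN+ and 16.9 CPM in NeuN− wells, and Cacng4 of 21.3 and 29.2 CPM, and neither passed the filter on low counts. Of 17 members with enough counts to be tested, 16 were higher in NeuN+ wells and 0 lower, while 77.4% of all 4585 genes tested differed between the fractions, 39.4% higher in NeuN+. Some members passed the filter through their NeuN+ wells alone (Cacng2 had 9, Cacng3 5 and Scn9a 16 counts over the 18 NeuN− wells), so the count describes the genes tested and not all 33. Without the filter 30 members were called higher and 1 lower. A call means an adjusted p below 0.05 by edgeR's quasi-likelihood test, and 15 of the 16 also passed the study's stricter rule of an adjusted p below 0.01 and a log2 fold change beyond 1, which 39.5% of all genes passed.

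Among the sodium channel pores, Scn1a ranged from 643.9 to 771 CPM (median 702) in the 18 NeuN+ saline wells and from 11.0 to 67.4 CPM (median 42.6) in the 18 NeuN− wells. The wells did not overlap, and the log2 fold change was 3.87 ± 0.09 (SE). Scn9a, a channel best known from pain-sensing neurons, had medians of 211 and 8.26 CPM (log2 fold change 4.59 ± 0.20), with 7 NeuN− wells at 0 counts. Scn8a, the main channel of the mature axon initial segment, had medians of 294 and 25.6 CPM, and Scn3a, a channel best known from the developing brain, of 319 and 33.5 CPM. All 4 were called higher in NeuN+ wells. The beta subunits gave few counts: Scn4b had 80 counts over the NeuN+ saline wells and 0 over the NeuN− saline wells, and it did not pass the filter for a test.

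The calcium channel pores showed the same split. Cacna1a, the P/Q-type pore of fast transmitter release, had medians of 428 CPM in NeuN+ and 63.9 CPM in NeuN− saline wells (log2 fold change 2.70 ± 0.10). Cacna1b, the N-type pore, had 317 and 9.69 CPM, and Cacna1e, the R-type pore, had 481 and 33.7 CPM. The 2 L-type pores, Cacna1c and Cacna1d, had 566 and 425 CPM in NeuN+ wells and 64.8 and 90.4 CPM in NeuN− wells. All 5 were called, with log2 fold changes from 2.01 ± 0.10 (Cacna1d) to 4.27 ± 0.16 (Cacna1b). The T-type pores, which open near rest, did not pass the filter on low counts. Cacna1g, Cacna1h and Cacna1i each had a median of 0 CPM in NeuN− wells, and their NeuN+ medians were 38.6, 8.20 and 19.7 CPM.

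The accessory subunits were less uniform. Cacna2d1, the receptor of gabapentinoid drugs, had medians of 817 CPM in NeuN+ and 58.4 CPM in NeuN− saline wells, and its log2 fold change was 3.66 ± 0.10. Cacna2d3 had medians of 493.5 and 107.5 CPM (2.04 ± 0.10) and Cacnb2 of 717 and 105 CPM (2.51 ± 0.10). Cacnb4 stood apart with 367 CPM in NeuN+ and 279 CPM in NeuN− wells, ranges of 326 to 458 and 205 to 404 CPM that overlap, and a log2 fold change of 0.37 ± 0.07. Of the Cacng genes, Cacng2 and Cacng3 were higher in NeuN+ wells (4.12 ± 0.29 and 4.61 ± 0.29), and Cacng7 had a log2 fold change of 0.25 ± 0.18 with an adjusted p of 0.201. Over the 4 time points, 0 members differed within the saline wells of either fraction (2.34% of genes in NeuN− and 0.428% in NeuN+, edgeR); at an unadjusted p under 0.05 there were 0 of 5 and 3 of 29 members.

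**Figure D1:**
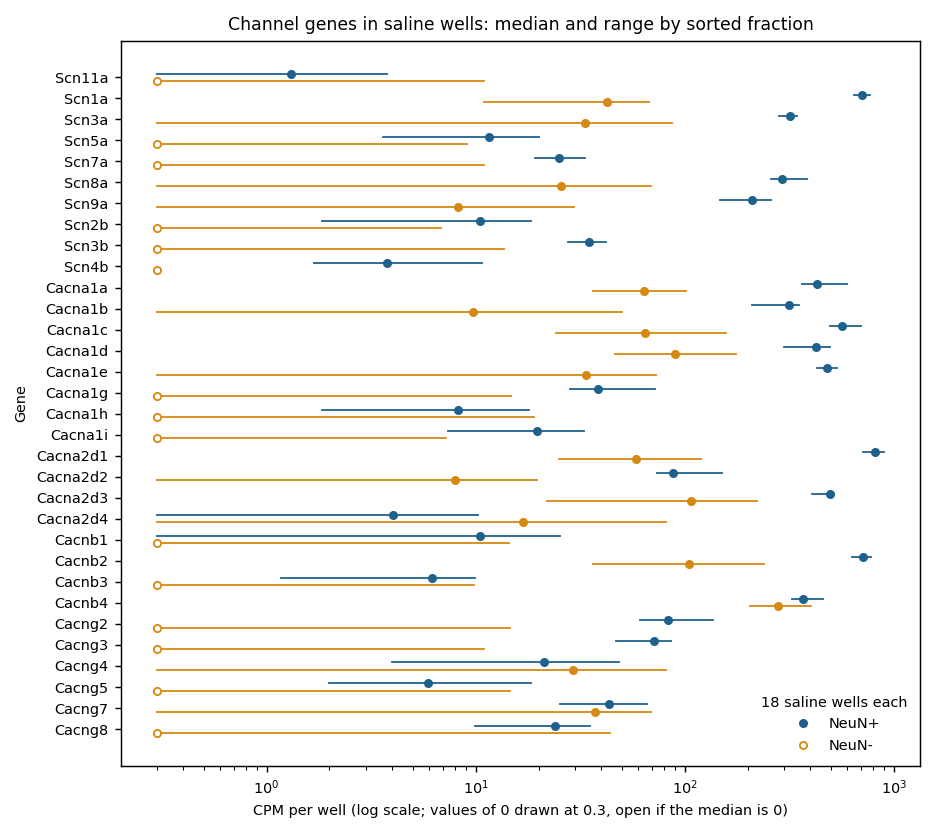
Median (point) and range (line) of CPM of 32 of the 33 members over the 18 NeuN+ and 18 NeuN− saline wells, on a log axis, with values of 0 drawn at 0.3 and the point open where the median is 0. The ranges of Scn1a, Cacna1a and the other members above 200 CPM in NeuN+ wells lie apart, except for Cacnb4 (medians 367 and 279 CPM). Several lower members overlap, such as Cacng7 (43.6 and 37.2 CPM), Cacng8, Cacng5, Cacnb1 and Cacna1h, and Cacna2d4 and Cacng4 have the higher median in NeuN− wells.

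The single nuclei were read for the glial classes that hold some of the members that NeuN− wells express. Nuclei were clustered without the member genes, and clusters were named by markers as dopamine-like, GABA-like, VGLUT2-like, oligodendrocyte-like, astrocyte-like or microglia-like. The means, SDs and percentages here pool the saline mouse and the 2 IFN-γ mice, so they are not saline levels. These mice gave 191, 744 and 306 of the oligodendrocyte-like nuclei. In oligodendrocyte-like nuclei Cacnb4 had 359 ± 77.9 CPM (SD, n = 3 mice) and was found in 60.2% of 1241 nuclei. It was found in 4.48% of 134 microglia-like and 9.33% of 193 astrocyte-like nuclei, at median depths of 3605, 3416 and 4792 UMIs for the 3 classes. Cacna2d3 followed at 97.2 ± 35.3 CPM and 22.6% of oligodendrocyte-like nuclei. Microglia-like nuclei held Cacnb2 (653 ± 79.4 CPM, 52.2% of nuclei) and Cacna1d (358 ± 114 CPM, 49.3%), against 3.79% and 4.43% of the oligodendrocyte-like nuclei. In the saline and the 2 IFN-γ mice, microglia-like nuclei had 571.5, 730 and 658.5 CPM of Cacnb2. Those of Cacna1d were 488, 306 and 280 CPM. Cacna1d was also found in 43% of astrocyte-like nuclei (150.3 ± 32.0 CPM) and Cacnb2 in 14.5% (46.5 ± 0.74 CPM). No cluster was named for oligodendrocyte precursors, endothelial or mural cells, so such cells of the NeuN− wells could not be read here. The precursor gene Pdgfra had a median of 41.7 CPM in NeuN− saline wells. In the nuclei Pdgfra and Cspg4 reached at most 4.44% and 3.57% of any cluster, and Vcan, Ptprz1 and Tnr 42.4%, 100% and 98.9%.

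In the NeuN− wells 2 members, Cacna2d3 and Cacnb4, differed between IFN-γ and saline wells at the early times. At 6 h 2 of 4 members tested were called, 1 higher and 1 lower, while 33.1% of all genes tested were (17.3% higher and 15.9% lower). Cacna2d3 had 105, 110.0, 111 and 116 CPM in the 4 saline wells and from 143 to 283 CPM (median 204) in the 6 IFN-γ wells. The 2 groups did not overlap, and the log2 fold change was 0.99 ± 0.23 (adjusted p = 0.00071). Cacnb4 went the other way, with 210.0, 230, 276 and 283 CPM in saline and from 47.7 to 222 CPM (median 153) in IFN-γ wells. Of the 6 IFN-γ wells 5 lay below all saline wells, and the log2 fold change was -0.76 ± 0.20 (adjusted p = 0.0036). The lowest IFN-γ value of both genes came from the shallowest well (20962 UMIs) and rests on very few counts. With single wells left out both calls held (edgeR, adjusted p up to 0.0042 for Cacna2d3 and 0.024 for Cacnb4).

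At 24 h both genes were higher, and 2 of 3 members tested were called beside 41.3% of all genes (20% higher). Cacnb4 ranged from 205 to 404 CPM (median 333) in the 6 saline wells and from 452 to 647 CPM (median 543.5) in the 6 IFN-γ wells. The wells did not overlap, and the log2 fold change was 0.68 ± 0.15 (adjusted p = 0.00037). Cacna2d3 ranged from 22.1 to 222 CPM (median 131) in saline and from 184 to 362 CPM (median 248) in IFN-γ wells, with 4 IFN-γ wells above all saline wells. Its log2 fold change was 0.81 ± 0.26 (adjusted p = 0.013), and without the saline well of 22.1 CPM the adjusted p was 0.052. Cacnb2, the third member tested, had a log2 fold change of 0.34 ± 0.26.

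At 48 h 0 of 4 members and at 72 h 0 of 5 members were called, where 6.21% and 3.98% of all genes were. By an unadjusted p under 0.05 there were 2 members at each time. Cacnb4 and Cacna2d3 at 48 h had log2 fold changes of 0.45 ± 0.16 and 0.63 ± 0.28, and all 6 IFN-γ wells of Cacnb4 (283 to 385 CPM) lay above the saline median of 237 CPM. At 72 h Cacna1c had 79.1, 89.3, 136 and 159 CPM in saline wells and from 37.6 to 82.3 CPM in IFN-γ wells (log2 fold change -0.94 ± 0.29, adjusted p = 0.056).

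Glial marker lists moved in the same wells. Of the oligodendrocyte genes, Mal and Mog fell at 6 h (log2 fold changes of -1.31 ± 0.23 and -1.05 ± 0.13), Mag rose (0.34 ± 0.12) and Mobp did not pass the test (-0.23 ± 0.10). At 24 h Mal (-2.46 ± 0.26), Mog (-2.21 ± 0.16), Mobp (-1.17 ± 0.15) and Mag (-1.07 ± 0.19) all fell. The summed CPM of 5 astrocyte genes had medians of 482 and 489 at 6 h and 526 and 1184 at 24 h, and the neuronal gene Syt1 was lower at both times. The summed CPM of 5 genes of oligodendrocyte precursors (Pdgfra, Vcan, Cspg4, Ptprz1 and Tnr) ranged from 448 to 1525 in saline and from 2076 to 2470 in IFN-γ wells at 24 h, where 1 of the 3 tested rose, and its medians at 6 h were 984 and 1078. That of 5 microglia genes had medians of 268 and 94.0 at 6 h and 300.4 and 172 at 24 h, with none of them tested. None of these genes was at 0 over a whole group, and the part of such shifts in the values of Cacna2d3 and Cacnb4 was not tested. In bulk wells a change in the share of a cell type and a change in RNA per nucleus cannot be told apart. In the oligodendrocyte-like nuclei at 48 h, Cacnb4 had 269 CPM in the saline mouse and 409.5 and 398 CPM in the IFN-γ mice, and Cacna2d3 had 60.5, 100.3 and 131 CPM, with no test made. The mice filled different oligodendrocyte-like clusters. The largest held 0 nuclei of the saline mouse and 443 and 173 of the IFN-γ mice, and the smallest 115, 32 and 7. Cacnb4 had 528, 241 and 331 CPM in the clusters of 616, 471 and 154 nuclei, and Cacna2d3 had 178, 20.9 and 103 CPM, so these mouse values mix clusters.

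**Figure D2:**
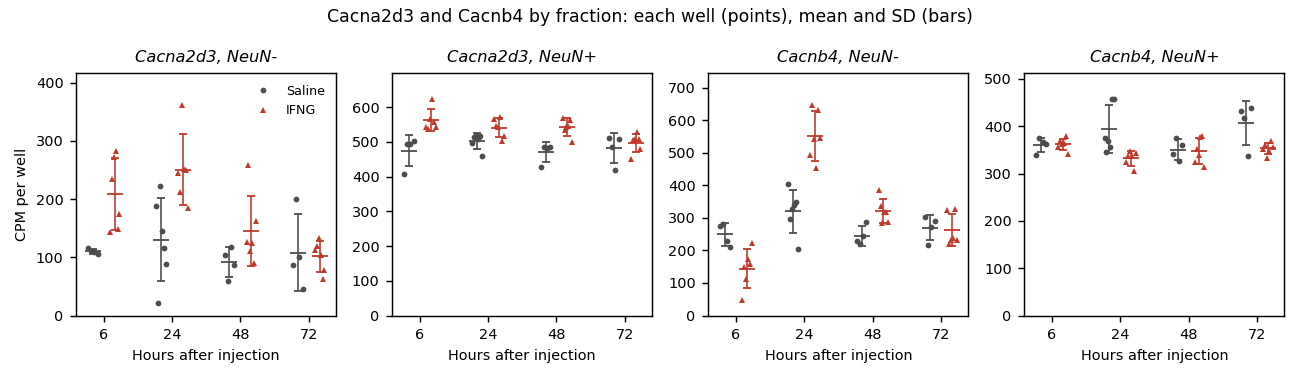
CPM of Cacna2d3 and Cacnb4 in each well by hours after injection, with saline (dark circles) and IFN-γ wells (red triangles) and bars for the mean and SD, in NeuN− and NeuN+ panels. In NeuN− wells the 6 IFN-γ wells of Cacnb4 sit at 47.7 to 222 CPM at 6 h and at 452 to 647 CPM at 24 h, with 5 of 6 below all saline wells at 6 h and none overlapping them at 24 h. The value of 47.7 CPM is from a well of 20962 UMIs and rests on very few counts.

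In NeuN+ wells 6 h after IFN-γ, 1 member rose and 1 fell. The 2 calls among 26 members tested compare with 8.6% of all genes tested (4.48% higher and 4.12% lower). Scn9a had 148, 188, 212 and 222 CPM in saline wells and from 248 to 303.5 CPM (median 262) in IFN-γ wells. No saline well reached the lowest IFN-γ well (log2 fold change 0.36 ± 0.08, adjusted p = 0.0018). Cacna1c had 531, 548.5, 582 and 584 CPM in saline and from 479 to 511 CPM (median 492) in IFN-γ wells, which all lay lower (log2 fold change -0.25 ± 0.06, adjusted p = 0.012). The call of Cacna1c was lost without the third saline well (adjusted p = 0.051) and without the filter on low counts (0.09). Cacng7, Cacna2d1, Cacna2d3, Cacnb2 and Scn3a also showed no overlap of saline and IFN-γ wells at 6 h but were not called.

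At 24 h 6 of 27 members were called in NeuN+ wells, 4 higher and 2 lower, beside 11.5% of all genes (6.23% higher and 5.3% lower). Among sodium channel pores, Scn8a fell from a saline range of 282 to 383 CPM (median 314) to 229 to 289 CPM (median 235). Of the 6 IFN-γ wells 5 lay below all saline wells (log2 fold change -0.35 ± 0.07, adjusted p = 0.001). Scn7a, a sodium-sensing relative without normal voltage gating, rose from 19.3 to 25.1 CPM (median 24.6) to 20.3 to 50.2 CPM (median 38.7), on sums of 175 and 238 counts (0.77 ± 0.16, adjusted p = 0.0022). Scn9a ranged from 179 to 233 and from 212 to 267 CPM (0.22 ± 0.07, adjusted p = 0.038). That call was lost when any of 7 of the 12 wells was left out, with adjusted p up to 0.091, and with DESeq2.

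Scn1a did not pass the test at 24 h, although its 6 IFN-γ wells (533 to 649 CPM) lay below its 6 saline wells (655 to 715 CPM). Its log2 fold change was -0.17 ± 0.07 with an adjusted p of 0.091. Scn1a encodes the sodium channel that fast-spiking interneurons depend on. Scn2a1 had a log2 fold change of -0.05 ± 0.07 and Scn3a of 0.13 ± 0.06 at this time, and neither was called.

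Of the calcium channel genes at 24 h, 1 fell and 2 rose. Cacna1a went from 418 to 579 CPM (median 456) in saline to 333 to 451 CPM (median 378) after IFN-γ, with 5 of 6 wells below all saline wells (log2 fold change -0.27 ± 0.07, adjusted p = 0.014). Cacna1e rose from 437 to 521 CPM (median 479) to 523 to 573 CPM (median 549.5), with no overlap (0.24 ± 0.07, adjusted p = 0.021). Cacna2d1 rose from 728.5 to 889.5 CPM (median 802) to 939 to 1032 CPM, again with no overlap (0.33 ± 0.08, adjusted p = 0.0092). The call of Cacna1a alone among these 3 depended on a single well (adjusted p = 0.052 without the third IFN-γ well).

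At 48 h 1 of 28 members was called, and 0.867% of all genes were (0.239% lower). Cacna2d2, an alpha-2-delta subunit known from cerebellar Purkinje cells, had 87.7, 95.5, 108 and 150.5 CPM in saline and from 61.0 to 79.0 CPM in IFN-γ wells. All 6 IFN-γ wells lay lower (log2 fold change -0.62 ± 0.11, adjusted p = 0.0036). The call was lost without the saline well of 150.5 CPM (adjusted p = 0.095) and with saline wells of all times as controls (0.11).

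At 72 h 4 of 26 members were called in NeuN+ wells, 1 higher and 3 lower, beside 7.17% of all genes (3.37% higher and 3.8% lower). Cacna1c had 590, 595, 607.5 and 652 CPM in saline and from 480 to 545 CPM (median 491) in IFN-γ wells, with no overlap (log2 fold change -0.34 ± 0.07, adjusted p = 0.0014). Cacna2d1, which had risen at 24 h, fell from 739, 808, 846 and 852 CPM to a range of 625 to 721 CPM (median 684), also with no overlap (-0.31 ± 0.08, adjusted p = 0.0082). At 6 h its 6 IFN-γ wells had also lain below all saline wells, without a call. Cacnb4 had 338, 417, 432 and 439 CPM in saline and from 332.5 to 370 CPM after IFN-γ, ranges that overlap through the lowest saline well (-0.26 ± 0.06, adjusted p = 0.0054). Cacng7, a relative of the AMPA receptor partners, had 28.1, 31.2, 37.9 and 41.3 CPM in saline and rose to 47.5 to 53.7 CPM (0.47 ± 0.14, adjusted p = 0.03). The Cacng7 call was lost when any of 5 of the 10 wells was left out and with DESeq2. Against saline wells pooled over the 4 times, Cacna1c (adjusted p = 0.066), Cacnb4 and Cacng7 were not called.

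No member passed the study's stricter rule at any time in either fraction. Of all genes, 11.7%, 14.6%, 1.4% and 1.13% passed it in NeuN− wells at 6, 24, 48 and 72 h, and 1.37%, 1.73%, 0.169% and 0.766% in NeuN+ wells. The called changes in NeuN+ wells ran from -0.62 to 0.77 on the log2 scale, and the median over all members tested lay between -0.07 and 0.07 at each of the 4 times. By an unadjusted p under 0.05 there were 8, 11, 6 and 6 members at 6, 24, 48 and 72 h. The times share no wells, but each rests on its own 4 to 6 saline wells.

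**Figure D3:**
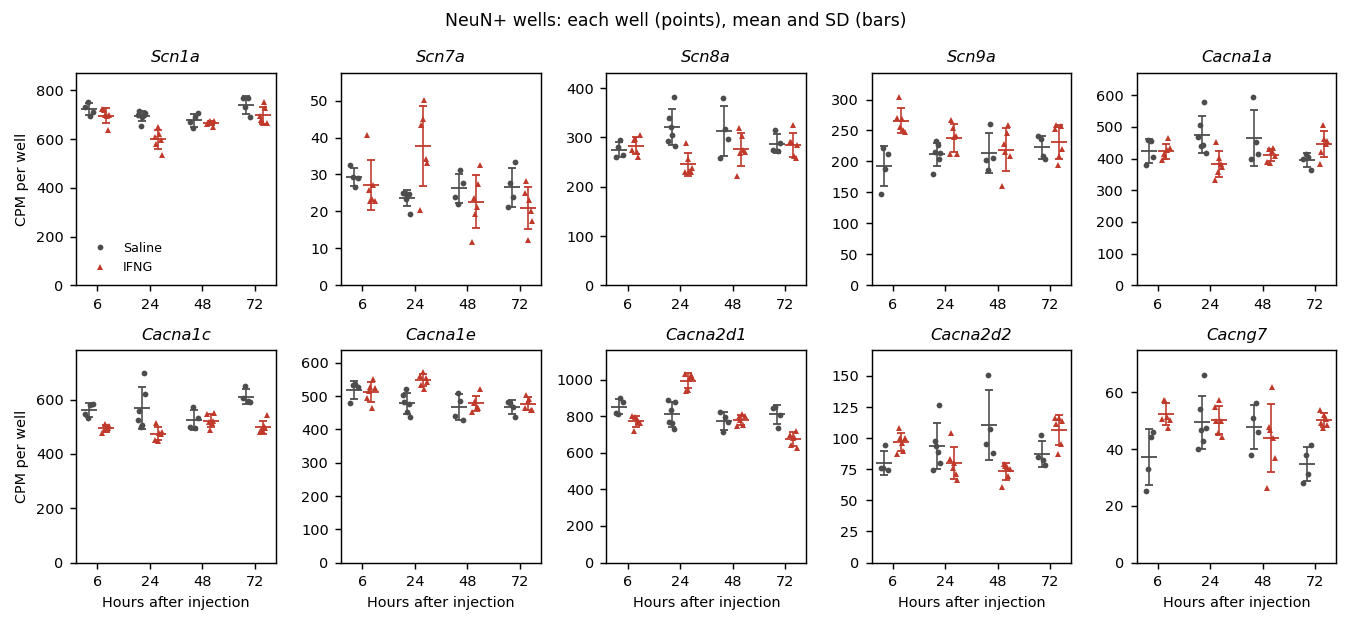
CPM of 10 members in each NeuN+ well by hours after injection, with saline (dark circles) and IFN-γ wells (red triangles) and bars for the mean and SD, on axes that start at 0. The differences are small beside the levels, as for Scn9a at 6 h (148 to 222 against 248 to 303.5 CPM) and Cacna2d1. After IFN-γ Cacna2d1 is lower at 6 h (not called), higher at 24 h and lower at 72 h.

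Marker lists of neuron types moved with treatment in the same NeuN+ wells. The summed CPM of 8 thalamic genes (Prkcd, Lef1, Synpo2, Tcf7l2, Gbx2, Ramp3, Rgs16 and Slc17a7) ranged from 184 to 222 in saline and from 40.2 to 72.5 in IFN-γ wells at 6 h, with Gbx2 at 0 in the IFN-γ wells. At 72 h the ranges were 333 to 509.8 and 103 to 181.5, with Ramp3 at 0 in the IFN-γ wells, and at 48 h they were 144 to 179 and 270 to 322. At 24 h the 6 saline wells fell in pairs of near-equal value (144 and 144.3, 255.9 and 258.4, 539.8 and 542), and the IFN-γ wells ranged from 122 to 166, with Slc17a7 at 0. Of the list's genes 3 of 3, 4 of 4 and 4 of 4 tested fell at 6, 24 and 72 h, and 3 of 4 rose at 48 h. When the list was drawn up, Prkcd, Lef1 and Synpo2 were already known from these data to fall at 72 h. Their fall at that time is therefore not an independent result.

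Cacna1c followed the same order of times, lower at 6 and 72 h, at -0.22 ± 0.08 at 24 h (adjusted p = 0.057) and at 0.00 ± 0.09 at 48 h. In the single nuclei the cluster led by Lef1, Prkcd and Synpo2 had 2415 CPM of Cacna1c, against 452 to 864.5 CPM in the other 11 named neuron clusters. That cluster held 3 nuclei of the saline mouse, 90 of the first and 13 of the second IFN-γ mouse. It also had 941 CPM of Cacnb4, which the other named neuron clusters except the smallest GABA-like one (1338 CPM, 25 nuclei) stayed below. At 72 h the 5 dopamine genes tested rose as well, with the oligodendrocyte genes Mobp, Mog and Mag and 2 of 3 astrocyte genes. The summed CPM of all 6 listed dopamine genes ranged from 152 to 251.5 in saline and from 452 to 566 in IFN-γ wells. At 24 h 4 of 4 GABA genes tested fell and 2 of 2 astrocyte genes rose. Of the VGLUT2 genes, 4 of 4 tested fell at 6 h and 3 of 4 at 72 h. The summed CPM of the VGLUT2 list, which shares Tcf7l2 with the thalamic list, ranged from 1185 to 1328 in saline and from 809 to 964 in IFN-γ wells at 6 h. At 72 h it ranged from 1471 to 1580 and from 883 to 969.5. Cacna2d1, which was highest in VGLUT2-like nuclei among the 3 classes, had all IFN-γ wells below the saline wells at both times. It was not called at 6 h. The part of these lists in the members' differences was not tested.

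**Figure D4:**
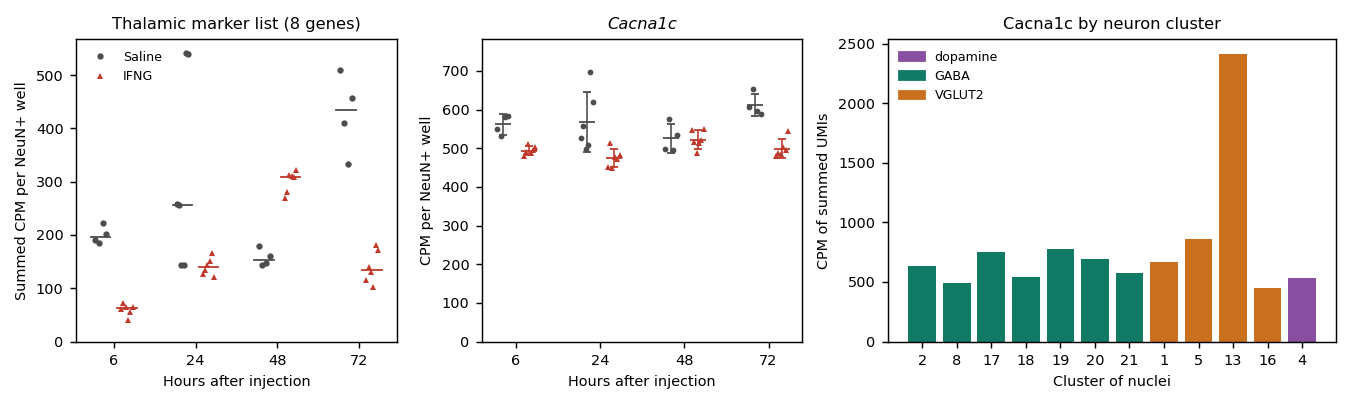
Summed CPM of the 8 thalamic genes in each NeuN+ well (left, line at the median), CPM of Cacna1c in the same wells (middle, bars for mean and SD) and Cacna1c in each named neuron cluster of the single nuclei (right, summed UMIs over all mice). The thalamic sum and Cacna1c are both lower after IFN-γ at 6 and 72 h, and the cluster led by Lef1 and Prkcd has 2415 CPM of Cacna1c. Prkcd, Lef1 and Synpo2 were already known from these data to fall at 72 h when the list was drawn up.

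The difference between the fractions in their response was tested as an interaction. At 6 h 2 of 17 members were called, beside 8.65% of all genes, and at 24 h 2 of 22, beside 11.1%. They were the same 2 genes each time. The interaction of Cacna2d3 (the IFN-γ effect in NeuN+ less that in NeuN− wells) was -0.90 ± 0.24 at 6 h (adjusted p = 0.01) and -0.77 ± 0.24 at 24 h (0.024). That of Cacnb4 was 0.65 ± 0.20 at 6 h (0.029) and -0.98 ± 0.16 at 24 h (1.7e-05). In NeuN+ wells at 6 h Cacnb4 ranged from 339 to 375 CPM in saline and from 342 to 379 CPM after IFN-γ, and Cacna2d3 from 408 to 503 and from 538 to 623 CPM. At 24 h 5 of 6 NeuN+ IFN-γ wells of Cacnb4 lay below all saline wells, and 4 of 6 of Cacna2d3 lay above them. Neither was called in NeuN+ wells at 24 h, and the interaction of Cacnb4 holds both its NeuN− rise and these lower NeuN+ values. All 6 NeuN+ IFN-γ wells of Cacna2d3 lay above all saline wells at 6 and at 48 h, without a call at either time. At 48 and 72 h 0 of 20 members were called each time (0.723% and 1.87% of all genes, edgeR), with 1 and 4 at an unadjusted p under 0.05. Leaving out single wells ended the calls of Cacna2d3 in 4 of 20 fits at 6 h and in 6 of 24 at 24 h, and that of Cacnb4 in 3 of 20 at 6 h.

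Genes that work beside these channels were read in the same NeuN+ wells, where 8.6%, 11.5%, 0.867% and 7.17% of all genes were called at 6, 24, 48 and 72 h. Of 14 sodium channel partners tested (fibroblast growth factor homologous factors, ankyrins, Sptbn4, Nfasc, Nrcam, Nedd4l, Scn2a1 and the leak channel genes), 2 fell at 6 h (Fgf14 -0.50 ± 0.14 and Sptbn4 -0.31 ± 0.10), 0 changed at 24 and 48 h and 1 fell at 72 h (Fgf13 -0.24 ± 0.07). Of 25 or 26 calcium handling genes, 1 rose and 4 fell at 6 h, 6 fell at 24 h, 1 fell at 48 h and 3 fell at 72 h. Among these, Atp2b2, a plasma membrane calcium pump, had -0.60 ± 0.08 at 24 h, and Camk2a, the calcium/calmodulin kinase of excitatory neurons, had -0.43 ± 0.12 at 6 h and -0.60 ± 0.11 at 72 h. Medians of both lists lay between -0.13 and 0.03 at every time.

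The same lists were read in the NeuN− wells. At 6 h, where 17.3% of all genes rose and 15.9% fell, 5 of 9 sodium channel partners rose (Nrcam, Nfasc, Nedd4l, Ank3 and Ank2) and 2 fell (Fgf14 and Fgf12). Fgf14, which binds the tails of sodium channel pores, went from -0.83 ± 0.14 at 6 h to 0.53 ± 0.14 at 24 h, and Nrcam, an adhesion protein of nodes of Ranvier, rose at 6 h (0.82 ± 0.15), 24 h (1.47 ± 0.14) and 48 h (0.71 ± 0.22). Of the calcium handling genes, Slc8a1, a sodium-calcium exchanger, fell at 6 h (-0.87 ± 0.10), 24 h (-1.12 ± 0.12) and 48 h (-0.53 ± 0.10). Itpr1, a calcium release channel, rose at 6 h (0.83 ± 0.20) and 24 h (1.25 ± 0.25). In the saline wells, 11 of 14 partners were higher in NeuN+ and 3 (Nfasc, Ank2 and Ank3) higher in NeuN− nuclei.

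The neuron classes of the single-nucleus data differed strongly in the members. Sums of UMIs per mouse were compared between 399 dopamine-like, 968 GABA-like and 1094 VGLUT2-like nuclei of the same 3 mice, with the mouse as a block. The class markers gave the names, and the members were left out of the clustering. The study itself had Cacna2d1 among its VGLUT2 markers and left out ambiguous neuronal clusters. The choice of nuclei was therefore not wholly independent of that member. Between dopamine-like and GABA-like nuclei 21 of 32 members tested were called, 11 higher and 10 lower in dopamine-like nuclei, beside 34.4% of all genes (17.3% higher and 17.1% lower). By the stricter rule 14 were called, beside 12.6% of all genes. Between dopamine-like and VGLUT2-like nuclei 22 of 32 were called (11 higher and 11 lower, beside 31.6% of all genes, 15.2% higher and 16.4% lower), 11 of them by the stricter rule (11.5% of all genes).

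Dopamine-like nuclei had a sodium channel set of their own. Scn1a had 139, 144 and 146 CPM in the saline mouse and the 2 IFN-γ mice, against 537, 571 and 566 CPM in GABA-like nuclei (log2 fold change -1.83 ± 0.09, adjusted p = 3.1e-08). Scn8a had 138, 148.5 and 144 CPM against 352, 354 and 327 CPM (-1.13 ± 0.09, adjusted p = 1.4e-06). Scn3a was the reverse, with 353, 324 and 370 CPM in dopamine-like and 149.7, 153 and 161 CPM in GABA-like nuclei (1.31 ± 0.07, adjusted p = 1.6e-07). In none of these 3 genes did the mice of the classes overlap. Scn9a had 201 ± 21.4 CPM (SD, n = 3 mice) in dopamine-like, 483 ± 28.2 in GABA-like and 396 ± 83.6 in VGLUT2-like nuclei, and it was lower in dopamine-like nuclei than in both. Scn2a1 had 383 ± 40.0, 408 ± 29.4 and 413 ± 22.3 CPM in the 3 classes, with log2 fold changes of 0.04 ± 0.07 and -0.01 ± 0.07 against GABA-like and VGLUT2-like nuclei.

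The sodium channel beta subunits split in the same way. Scn3b had 82.9, 85.9 and 96.8 CPM in dopamine-like and 25.5, 22.9 and 28.7 CPM in GABA-like nuclei (log2 fold change 1.92 ± 0.10, adjusted p = 5.5e-08). Scn4b, linked to resurgent sodium current in fast-firing neurons, had 4 UMIs in all in the dopamine-like nuclei and 176 in the GABA-like nuclei, found in 0.752% and 14.6% of them. Scn2b was lower in dopamine-like nuclei by both comparisons (-0.92 ± 0.11 and -0.87 ± 0.11).

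Among the calcium channel pores, dopamine-like nuclei were high in Cacna1a and Cacna1e and low in the T-type gene Cacna1i against both other classes. Cacna1e had 846, 817 and 738 CPM in dopamine-like and 217, 256 and 233 CPM in GABA-like nuclei (log2 fold change 1.90 ± 0.09, adjusted p = 3.7e-08). Cacna1a had 1499, 1459 and 1282 CPM against 669, 712 and 639 CPM (1.20 ± 0.08, adjusted p = 4e-07). Cacna1d, the L-type gene linked to pacemaking, had 530 ± 22.8, 432 ± 25.7 and 379 ± 33.8 CPM in dopamine-like, GABA-like and VGLUT2-like nuclei, and was higher in dopamine-like nuclei than in both (0.43 ± 0.07 and 0.58 ± 0.07). Cacna1i had 20 UMIs in all in dopamine-like nuclei and 545 in GABA-like nuclei (-3.53 ± 0.38, and -3.74 ± 0.37 against VGLUT2-like nuclei). Cacna1h was lower than in GABA-like nuclei (-1.15 ± 0.20), and its log2 fold change against VGLUT2-like nuclei was -0.09 ± 0.22. Cacna1g, the other T-type gene, was higher than in GABA-like nuclei (0.83 ± 0.11) and had a log2 fold change of -0.07 ± 0.10 against VGLUT2-like nuclei. Cacna1c did not pass the test against GABA-like nuclei (-0.04 ± 0.12) and was lower than in VGLUT2-like nuclei (-0.42 ± 0.12, adjusted p = 0.021), a call lost without the first IFN-γ mouse (0.099).

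Of the alpha-2-delta genes, Cacna2d1 and Cacna2d2 were called in all 3 class comparisons, Cacna2d3 in those with dopamine-like nuclei and Cacna2d4 in none. Cacna2d1 had 525, 377 and 533 CPM in dopamine-like nuclei, 30.0, 56.5 and 23.0 CPM in GABA-like nuclei and 1174, 903 and 1157 CPM in VGLUT2-like nuclei. The mice of the 3 classes did not overlap, and the log2 fold changes were 3.83 ± 0.28 for dopamine-like against GABA-like (adjusted p = 1.1e-06), -1.08 ± 0.24 for dopamine-like against VGLUT2-like and -4.90 ± 0.29 for GABA-like against VGLUT2-like nuclei (adjusted p = 1.5e-06). In single clusters Cacna2d1 ran from 5.26 to 61.3 CPM in the 7 GABA-like clusters and from 710.5 to 1826 CPM in the 4 VGLUT2-like clusters. Cacna2d2 had the opposite order, with 221 ± 28.8 CPM in GABA-like, 119 ± 2.74 in dopamine-like and 96.3 ± 8.35 in VGLUT2-like nuclei. Cacna2d3 was highest in dopamine-like nuclei, with 756 ± 76.0 CPM against 394 ± 17.8 and 348 ± 71.3 CPM (1.06 ± 0.10 and 1.23 ± 0.10).

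Of the other subunits, Cacnb2 had 1081 ± 89.5 CPM in dopamine-like, 580 ± 12.6 in GABA-like and 737 ± 30.9 in VGLUT2-like nuclei and was called in all 3 comparisons. Its call between GABA-like and VGLUT2-like nuclei was lost without the saline mouse and without the second IFN-γ mouse. Cacnb4 had 278 ± 22.8, 338 ± 16.9 and 311 ± 77.4 CPM and was called in none of them. Cacng2 had 104 ± 5.30, 128 ± 10.9 and 125 ± 16.7 CPM and was also called in none. Cacng3 was lower in VGLUT2-like nuclei (53.3 ± 8.43 CPM) than in dopamine-like (80.1 ± 8.70) and GABA-like nuclei (77.3 ± 6.62).

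GABA-like and VGLUT2-like nuclei differed less from each other. Of 32 members 7 were called, beside 6.38% of all genes (2.15% higher and 4.23% lower). Cacna2d2 (1.16 ± 0.09), Cacna1h (1.06 ± 0.16) and Cacng3 (0.51 ± 0.09) were higher in GABA-like nuclei, and Cacna2d1, Cacna1g (-0.90 ± 0.10), Cacna1e (-0.55 ± 0.09) and Cacnb2 (-0.38 ± 0.08) were lower. Some clusters of these classes were held unevenly by the mice, among them the one led by Lef1 and a GABA-like cluster of 45 nuclei from the first IFN-γ mouse alone. With 1 GABA-like and 2 VGLUT2-like clusters that held 70 or more nuclei of each mouse, 14 members were called. The 7 named here kept their direction and their call there. With single mice left out the call of Cacnb2 was lost in 2 of 3 fits (edgeR, adjusted p up to 0.21), and the others kept theirs.

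**Figure D5:**
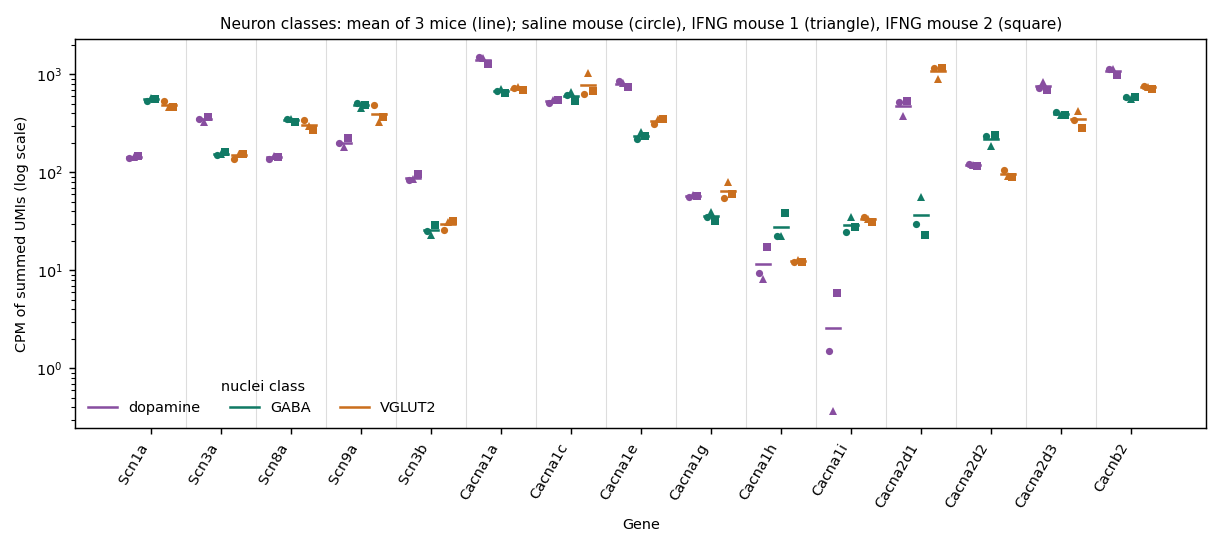
CPM of summed UMIs of 15 members in dopamine-like, GABA-like and VGLUT2-like nuclei on a log axis, with a line for the mean of 3 mice and a point for each mouse. Dopamine-like nuclei lie below both other classes for Scn1a, Scn8a and Cacna1i and above them for Scn3a, Scn3b, Cacna1a and Cacna1e, and Cacna2d1 separates all 3 classes.

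Calcium handling genes and channel partners also differed between the neuron classes. Between dopamine-like and GABA-like nuclei 11 of 28 calcium handling genes were higher and 14 lower, and 3 of 15 channel partners were higher and 6 lower, beside 17.3% of all genes higher and 17.1% lower. Calb1, a calcium buffer, was higher in dopamine-like nuclei (log2 fold change 4.10 ± 0.27), as was Erc2, an active zone protein (2.83 ± 0.09). Ryr2, a calcium release channel, was lower (-2.63 ± 0.20), as were Fgf12 (-1.36 ± 0.08) and Fgf11 (-3.49 ± 0.38), while Fgf13 was higher (1.61 ± 0.21).

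The IFN-γ effect at 48 h could be tested only weakly in the neuron classes. By edgeR 0 of 31 members were called in dopamine-like nuclei, 0 of 32 in GABA-like and 0 of 32 in VGLUT2-like nuclei, where 0.247%, 0.0577% and 0.0582% of all genes were. At an unadjusted p under 0.05 there were 0, 0 and 4 members. B2m, an IFN-γ response gene, was called in each class. With 1 saline mouse the spread was taken from the 2 IFN-γ mice, few genes of any kind could be called, and 0 calls do not show that the members kept their level. The median over members was -0.03, -0.02 and 0.02. In VGLUT2-like nuclei Cacna1c had 626 CPM in the saline mouse and 1037 and 673 CPM in the IFN-γ mice (0.45 ± 0.25), and the first IFN-γ mouse held 90 of the 106 nuclei of the cluster led by Lef1. Cacna2d2, called in the NeuN+ wells at 48 h, had log2 fold changes of -0.06 ± 0.20, -0.15 ± 0.17 and -0.21 ± 0.14 in the 3 classes.

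Within the dopamine-like nuclei, those with a UMI of Sox6, a transcription factor of ventral-tier substantia nigra neurons, were compared with those without. The split gave 111, 90 and 45 nuclei with and 58, 43 and 52 without Sox6 in the 3 mice. A nucleus without a UMI may still express the gene, so the groups overlap in kind. The split also depends on depth, and nuclei with Sox6 held more UMIs per nucleus in each mouse. In the saline mouse they held 2846794 UMIs in 111 nuclei, against 1136027 in 58 nuclei without Sox6. Of 26 members 6 were called, beside 10.1% of all genes. Cacng4 had 23.9, 16.1 and 31.2 CPM in nuclei with and 67.8, 43.3 and 79.5 CPM in nuclei without Sox6 (log2 fold change -1.33 ± 0.18, adjusted p = 1.5e-05). Cacng3 had 67.8, 56.5 and 62.4 against 128.5, 113 and 113 CPM (-0.83 ± 0.13, adjusted p = 9.2e-05). Both encode partners of AMPA receptors, and both were lower in nuclei with Sox6 in 3 of 3 mice.

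Cacna2d1 had 417, 339 and 439 CPM with and 794, 495 and 650.4 CPM without Sox6 (-0.59 ± 0.10, adjusted p = 0.00035). Cacnb4 was higher with Sox6, at 328, 289 and 283 against 227, 254 and 217 CPM (0.48 ± 0.11, adjusted p = 0.0038). Cacna1d had 0.40 ± 0.10 (0.013) and Scn9a -0.41 ± 0.11 (0.014). DESeq2 called 3 members, and the calls of Cacnb4, Cacna1d and Scn9a were lost with it. Without the saline mouse 2 were called, Cacng3 and Cacng4.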

How the data were processed

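The authors sorted nuclei into wells, trimmed poly(A), aligned the reads with STAR in 2-pass mode to GRCm38 with Gencode vM10 and merged molecular identifiers, and the deposited values are UMI counts per gene and well, not normalized. The second deposited table holds UMI counts of 4699 single nuclei from gene bodies, introns included. The authors had removed doublets, rare populations and ambiguous neuronal clusters, so no doublet caller was run. Naming by markers left 670 of the nuclei, in 5 clusters, unnamed, and these are in none of the classes. All columns of wells were used (0 unmapped).

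Counts were tested with edgeR 4.0.16 (TMM, filterByExpr, quasi-likelihood F test) in R 4.3.3, with Benjamini-Hochberg adjustment over all genes tested, and errors of fold changes are standard errors from that fit. Levels are CPM on the total count of a well, or of a class in 1 mouse. DESeq2 1.42.0, other scaling, no filter, saline wells of all times and single samples left out were alternatives. Nuclei were clustered by Leiden (leidenalg 0.10.2, 2000 variable genes, 30 principal components, 15 neighbours, resolution 1 and, as an alternative, 2) without the members, named by marker lists, and summed per mouse and class, with the mouse as a block between classes. The scripts were tested on simulated data. NeuN+ wells held a median of 1064222 counts and NeuN− wells of 110248, and the nuclei of the 3 mice shared 0 barcodes. Intervals and errors cover the spread between these wells or mice.

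Any member could be named. Values per well are given for called members, up to 8 per comparison by smallest p, and for the main pore and accessory genes whatever their result. The members and lists were chosen with earlier results of these data known. Promoter sequences are RefSeq's, GRCm38.p6. A few genes, 1 member among them, are not reported here.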

Additional observations from a re-analysis of the deposited data

Results flagged for a closer look

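In groups of 4 to 6 wells, 34 sets of values were searched for a well far from its group, and 2 were found, where chance gives about 1 in 20. Scn7a had 19.3 CPM in the sixth saline NeuN+ well at 24 h, below the others. Cacna1c had 544.7 CPM in the sixth IFN-γ NeuN+ well at 72 h, above the others. The IFN-γ effect differed between fractions, by the interaction term, for Cacna2d3 (-0.90 at 6 h and -0.77 at 24 h, log2 scale) and for Cacnb4 (0.65 at 6 h and -0.98 at 24 h).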

How the results depend on the processing

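No direction reversed. Of single members, 390 values under other settings kept their call and 18 lost it, and with a sample left out 397 kept it and 45 lost it. In NeuN+ wells at 6 h DESeq2 called 4 members and saline wells of all times 5, against 2, and at 48 h the latter called 0 against 1. The interaction at 6 h gave 1 call without the filter on low counts, against 2. Between fractions, no filter and DESeq2 each gave 31 calls against 16. Between GABA-like and VGLUT2-like nuclei no filter gave 13 calls against 7. Clusters with 70 or more nuclei of each mouse, chosen after seeing the data, gave 14. DESeq2 gave 3 calls for Sox6 against 6. The cause was not tested. With single samples left out, counts ran from 2 to 3, 1 to 2, 0 to 0 and 0 to 1 in NeuN− wells at 6, 24, 48 and 72 h, and from 1 to 3, 4 to 7, 0 to 1 and 3 to 4 in NeuN+ wells. The interaction gave 0 to 2 at 6 h and 1 to 3 at 24 h. Counts ran from 20 to 22 (dopamine-like against GABA-like), 20 to 21 (against VGLUT2-like), 6 to 9 (GABA-like against VGLUT2-like) and 2 to 7 (Sox6). No paired analysis was possible because the wells are numbered in accession order and their mice are not known. Depth limits the NeuN− wells, where 3 to 5 members could be tested.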
